A study of Mus musculus with 11 samples.

Results

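The genes examined here carry the signal of the LH receptor inside the Leydig cell, through cAMP and the cAMP-dependent protein kinase (PKA). They are 43 genes listed by function, and the list was chosen with earlier results of these data known. It holds the receptor, 6 G protein alpha subunits, 4 adenylyl cyclases, 2 catalytic and 4 regulatory subunits of PKA, and 8 phosphodiesterases. The rest are 7 A-kinase anchoring proteins, 5 members of the CREB family and its coactivators, 2 Epac exchange factors, and 4 genes of receptor desensitization. Probes were assigned to 40 of the 43 genes through their RefSeq accessions, and these genes had 75 of the 41174 probes of the array. No probe was assigned to *Akap11*, *Akap13*, and *Arrb2*.

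RNA came from MLTCs, cells of the mouse Leydig tumor line MLTC-1, 48 hours after transfection at 20 nM with non-targeting RNA (control, 4 arrays), siRNA1 (4 arrays), or siRNA2 (3 arrays). siRNA1 and siRNA2 are different short RNA duplexes against *Mamld1*, a gene of male sex development. The methods describe addition of hCG, a ligand of the LH receptor, 1 hour before the cells were harvested, while the labels name no hCG. There was no group without transfection, and no comparison with and without hCG could be made.

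In Leydig cells, LH or hCG binds its receptor, the stimulatory G protein activates adenylyl cyclase, and the cAMP produced binds the regulatory subunits of PKA and frees the catalytic subunits. PKA then acts at places set by its anchoring proteins and phosphorylates, among others, the transcription factors of the CREB family, and this is the main stimulus of steroid synthesis in the testis. Phosphodiesterases degrade cAMP, and RGS proteins, receptor kinases, and arrestins dampen the signal at the receptor and its G proteins.

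The *Mamld1* probe read 85.2% to 119.3% on the control arrays, 44.1% to 77.0% with siRNA1, and 45.3% to 68.6% with siRNA2, so no array went against its label. Each level is given in percent, where 100% is the geometric mean over the 4 arrays with non-targeting RNA, after each array was scaled to the 75th percentile of its own signals. That percentile was 470 to 582 on control arrays, 601 to 774 with siRNA1, and 488 to 579 with siRNA2, and a fold change is relative to it. All 9 Leydig cell markers were well above background on all 11 arrays. Their summed signal was 464 to 608 times the 75th percentile on control arrays, 426 to 494 with siRNA1, and 522 to 631 with siRNA2, so that the siRNA1 and siRNA2 arrays did not overlap. Between the siRNAs all 13 probes of these markers, which include *Lhcgr*, were lower with siRNA1 (median log2 difference -0.26). Of these 13 probes, 5 were called lower, against 11.8% of all tested probes. Among the probes of the 43 genes called between the siRNAs, 12 were lower with siRNA1 and 9 higher. These were 19.7% and 14.8% of their tested probes, against 11.8% and 11.7% of all. Of the markers of other testicular cells, *Sox9* and *Wt1* (Sertoli cells) and *Ptprc*, *Adgre1*, and *Lyz2* (macrophages) were not above background on any array. The same held for 1 of the 6 markers of peritubular cells and fibroblasts. The other markers with a probe were above background on at least 1 array. Well above background on all 11 arrays were 4 of 7 Sertoli cell markers and 3 of 5 germ cell markers with a probe. So were 1 of 5 macrophage markers and 3 of 6 markers of peritubular cells and fibroblasts. Among the markers above background *Ddx4* (germ cells) was lower with siRNA1 (log2 fold change -1.72), while *Dhh* (Sertoli cells, 0.72) and *Pdgfra* (peritubular cells and fibroblasts, 0.93) were higher with siRNA2. With siRNA1, 1 probe of the peritubular and fibroblast markers was called lower. The summed signals of the other marker lists overlapped between the groups, except that the macrophage markers were lower on all siRNA2 arrays than on any control array. For Sertoli cell markers they were 52.9 to 74.5 times the 75th percentile on control arrays, 46.8 to 75.9 with siRNA1, and 61.1 to 83.6 with siRNA2, and for peritubular and fibroblast markers 14.1 to 17.97, 12.1 to 17.7, and 12.53 to 18.7. For germ cell markers the sums were 0.644 to 0.720, 0.504 to 0.731, and 0.491 to 0.836, and for macrophage markers 0.111 to 0.127, 0.0832 to 0.213, and 0.0812 to 0.102. The part of these markers in the results below was not tested.

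Every one of the 3 slides held control, siRNA1, and siRNA2 arrays. Departures of the arrays from their group means were correlated across probes for arrays that shared a slide (median r = 0.37, 13 pairs) and not for arrays of separate slides (median r = -0.16, 27 pairs). With slide as a block, 35.8% of all tested probes were called with siRNA1, 25.5% with siRNA2, and 32.1% between the siRNAs. Each share is higher than without the block. Fits that include slide as a block are quoted where they change a call. The same is done for a normexp background correction with extreme local backgrounds replaced, where it ends a call or changes a called value by more than 1.5 times. Its added offset makes the differences of dim probes smaller. Calls were also lost with scaling by the median, without the filter on dim probes, or in fits of the 2 groups compared. These losses are counted at the end and given below only for some genes. The labels do not say whether arrays of a group came from separate cultures, so p-values measure the spread between these arrays, and their number limits the precision.

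The transcription factors at the end of the cascade bind the cAMP response element, TGACGTCA, or its shorter core, TGACG. Over 66 promoters of 34 of these genes in RefSeq (GRCm38.p6, 250 bases before to 50 after each start), searched on both strands, the core lay in 31.8% of promoters, against 20.8% of all 32851 promoters of the table. The full element, which also counts as a core, lay in promoters of 1 of the genes, *Prkar1a* (3.03% of the promoters, against 1.79% of all), and the letters CAAGGTCA, a binding site of steroidogenic factor 1, in none (against 1.56%). Stretches are shown for *Prkar1a* and for the genes with a called probe that carry the core before the start, so that the letters can be read beside their RNA levels. The core also lay before the start in *Gnas*, *Prkaca*, *Prkacb*, *Pde4b*, *Akap11*, and *Rapgef3*, and only in the window after it or across it in *Gnai3*, *Prkar2a*, and *Pde8b*. These stretches are not printed. Each runs 5′ to 3′ on the strand of the gene, with the element or its core in capitals, as CGTCA where the core lies on the other strand.
*Prkar1a*, chr11:109650889-109650918, plus strand: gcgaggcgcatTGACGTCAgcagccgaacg
*Rgs2*, chr1:144004317-144004346, minus strand: atgcggcgcctaCGTCAacagcgccctcgc
*Rgs2*, chr1:144004199-144004228, minus strand: ttggggcgtggcTGACGcctccaggtcccg
*Prkar1b*, chr5:139150033-139150062, minus strand: tagagggcggagTGACGggcaggaggacga
*Adcy7*, chr8:88282952-88282981, plus strand: tgatcatagagcCGTCAggggggtggggct
*Adcy9*, chr16:4420505-4420534, minus strand: cggacccggcggTGACGtgcgcgggccgcg
*Pde8a*, chr7:81213169-81213198, plus strand: gctgctttgcatTGACGccagcagccgctg
*Pde4a*, chr9:21184039-21184068, plus strand: ggcacagctcgaCGTCAggctggggaggag
*Atf1*, chr15:100227757-100227786, plus strand: gtgaccacgcggTGACGcagcacgccggcg
The element began 49 bases before the start in *Prkar1a*. The same site lay 38 bases after the start of an overlapping promoter of *Prkar1a* and was counted in both. The core began 185 and 67 bases before the start in *Rgs2* and 24 bases before it in *Adcy9*. The core lay in promoters of 10 of the 18 genes that have both a promoter in the table and a probe called in any comparison below. It lay in those of 17 of all 34 (50%), against 23% of all 27025 genes of the table. A gene with more promoters can match more often, and the 34 genes had 66 of them, against 32851 for all 27025. A match of letters is a description and not a site shown to be bound.

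Of the 75 probes, 61 probes of 36 genes were tested, and these were well above background on all 11 arrays. *Pde4b*, *Pde4d*, and *Pde10a* were not well above background on any array, and *Pde3b* on 4 of them, so no change can be given for these phosphodiesterases. A probe is called where its adjusted p from limma, taken over 24250 probes, was at most 0.05. With siRNA1, 13 of the 61 probes rose (21.3%, against 11.8% of all tested probes) and 11 fell (18%, against 15.2%), and 3 of them changed 2-fold or more (against 2.99% of all). With siRNA2, 9 rose (14.8%, against 7.70%) and 8 fell (13.1%, against 10.7%), and 1 changed 2-fold or more (against 2.25%). siRNA1 compared directly with siRNA2 gave 9 higher probes (14.8%, against 11.7%) and 12 lower ones (19.7%, against 11.8%), with 6 at 2-fold or more (against 3.36%). The median log2 fold change of the 61 probes was 0.01 with siRNA1 and -0.02 with siRNA2, against -0.05 and -0.01 over all tested probes. Probes of the same gene are not independent, and the 2 siRNA comparisons share the control arrays, so that their values are given side by side. All 62 called values had the same sign on each of the 3 slides. The slides hold the same arrays that gave the calls, so this is no separate test.

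**Figure D1:**
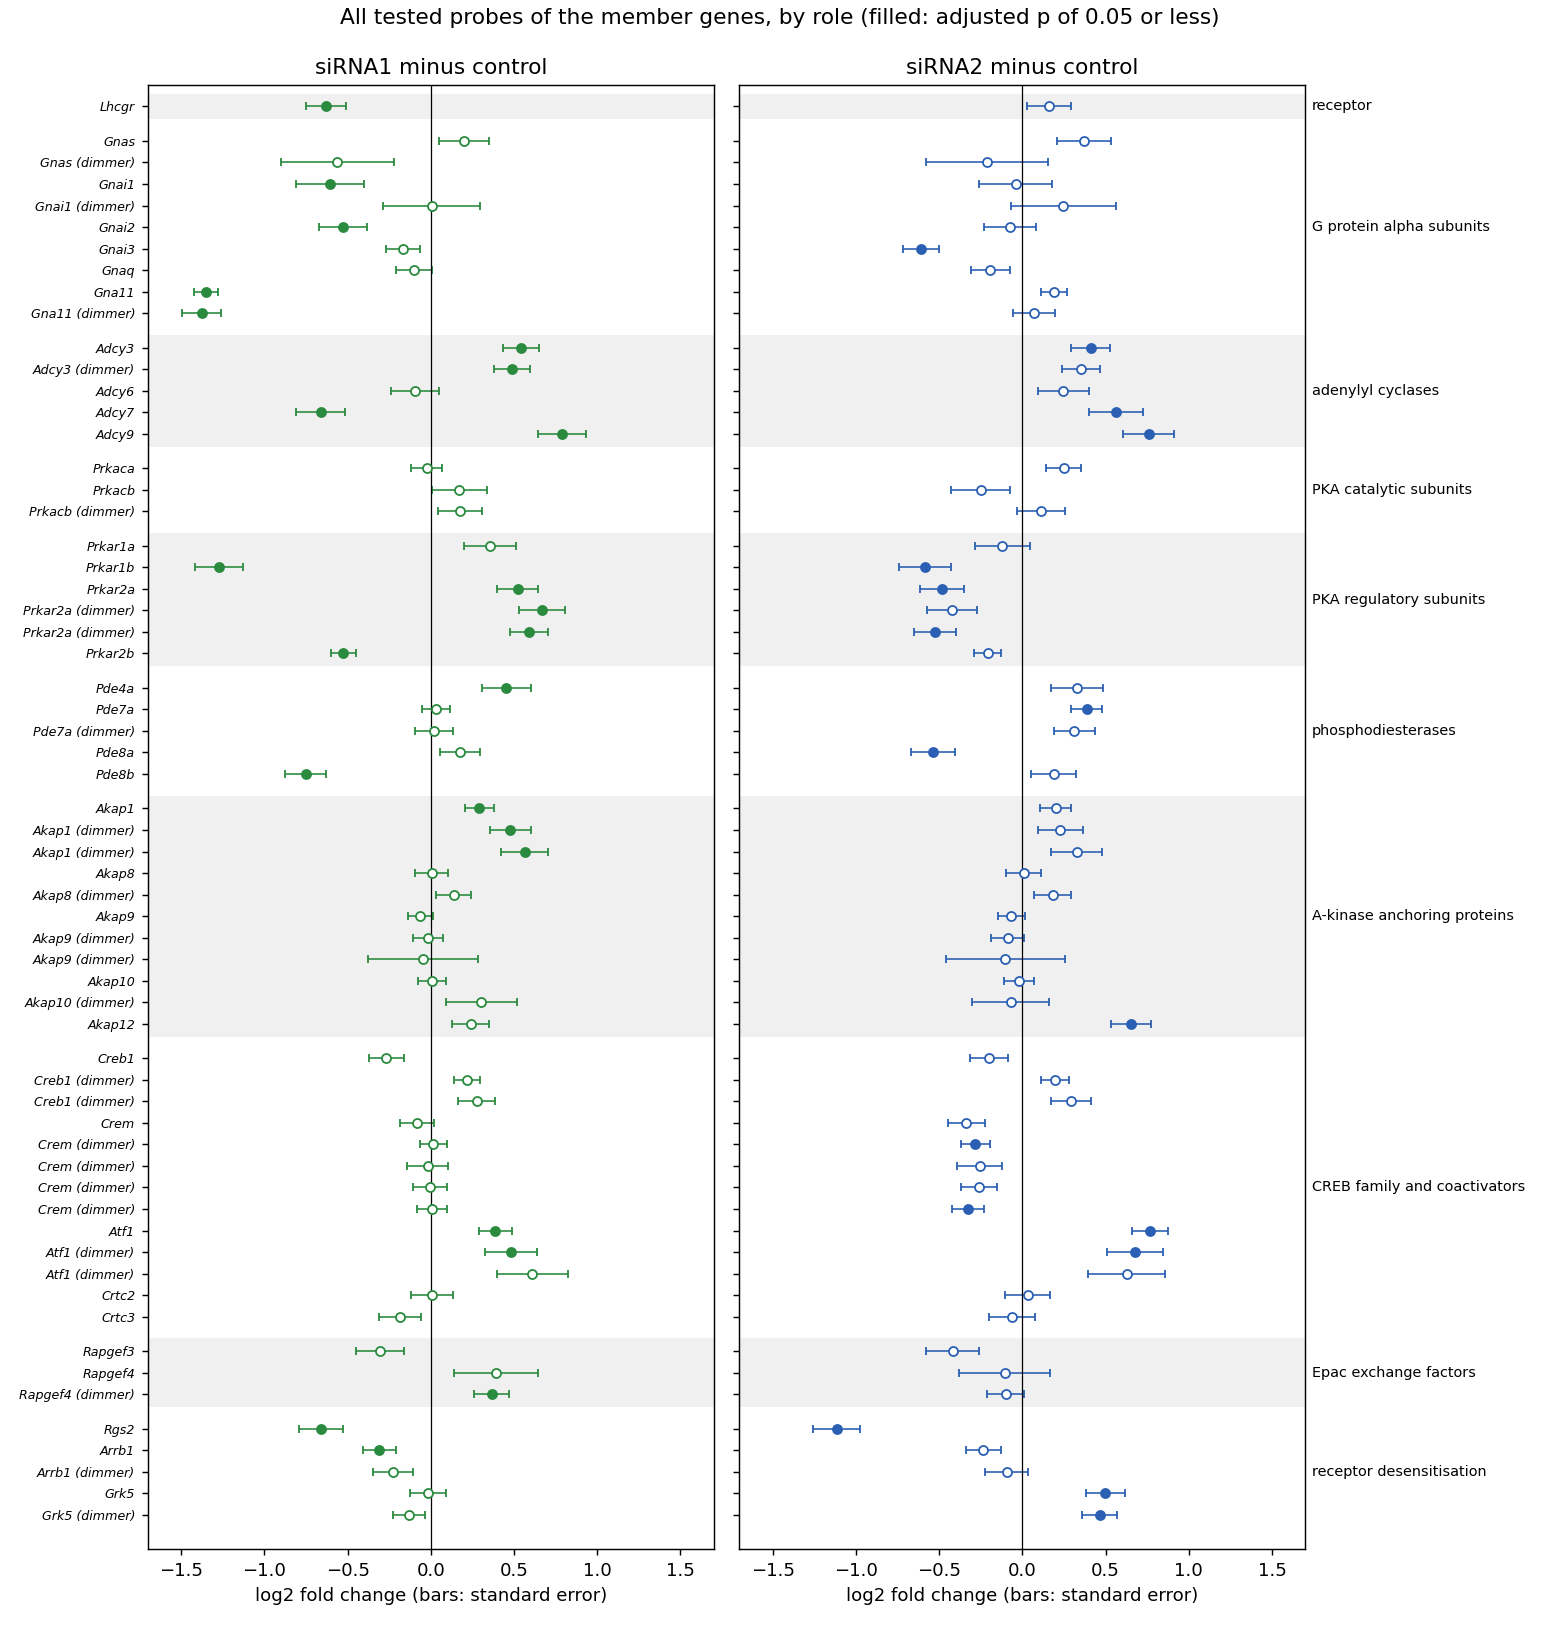
The log2 fold change of each of the 61 tested probes of the cascade with siRNA1 (left) and siRNA2 (right) against control, ordered by role from the receptor to desensitization, with bars for the standard error and filled points for an adjusted p of 0.05 or less. The probes of *Gna11* stood near -1.35 with siRNA1 and above 0 with siRNA2, those of *Prkar2a* moved to opposite sides, and those of *Adcy9* and *Atf1* lay above 0 with both.

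*Lhcgr*, the receptor itself, fell with siRNA1 and not detectably with siRNA2. Its probe read 103%, 97.8%, 102%, and 97.5% on the 4 control arrays. With siRNA1 it read 76.7%, 60.6%, 70.9%, and 53.2%, all below the lowest control array. With siRNA2 it read 126%, 112%, and 98.5%, overlapping the control arrays. The log2 fold change of *Lhcgr* was -0.63 ± 0.12 (SE, adjusted p = 0.00285 by limma) with siRNA1 and 0.16 ± 0.13 (SE, adjusted p = 0.471 by limma) with siRNA2. The siRNA1 and siRNA2 arrays did not overlap, and the log2 difference between them was -0.79 ± 0.13 (SE, adjusted p = 0.00121 by limma). In RNA from whole cultures, a smaller share of cells with a transcript and less of it per cell cannot be told apart.

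Among the G protein alpha subunits, *Gna11* had the largest change of all 61 probes in the siRNA1 comparison, while the stimulatory subunit *Gnas* was not called. *Gna11* encodes an alpha subunit that activates phospholipase C. Its brighter probe read 103%, 91.7%, 108%, and 98.7% on the control arrays, 39.3%, 39.4%, 39.0%, and 39.3% with siRNA1, and 111%, 111%, and 120.4% with siRNA2. The siRNA1 arrays lay within 1 percentage point of each other, all below the others, and the siRNA2 arrays lay just above the highest control array. On the log2 scale the change was -1.35 ± 0.07 (SE, adjusted p = 9.38e-07 by limma) with siRNA1, 0.19 ± 0.08 (SE, adjusted p = 0.13 by limma) with siRNA2, and -1.54 ± 0.08 (SE, adjusted p = 8.81e-07 by limma) between the siRNAs. The dimmer probe of *Gna11* read 38.6%, 47.1%, 34.2%, and 35.4% with siRNA1, against 93.7% to 106% on control arrays, and its log2 fold changes were -1.38 ± 0.12 (SE, adjusted p = 1.43e-05 by limma) with siRNA1 and 0.07 ± 0.13 (SE, adjusted p = 0.79 by limma) with siRNA2. Both probes thus moved by the same amount within their errors. *Gnaq*, the closest relative of *Gna11* in function, was not called in any comparison (log2 fold change -0.10 with siRNA1 and -0.19 with siRNA2).

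*Gnas* encodes the subunit that couples the receptor to adenylyl cyclase. Its brighter probe read 86.8%, 94.3%, 117%, and 104% on control arrays, 89.7%, 135%, 127%, and 114% with siRNA1, and 109%, 145%, and 137% with siRNA2, and all 3 groups overlapped. Against control, the log2 change was 0.20 ± 0.15 (SE, adjusted p = 0.358 by limma) with siRNA1 and 0.37 ± 0.16 (SE, adjusted p = 0.144 by limma) with siRNA2. With slide as a block, the second value became 0.31 (adjusted p = 0.0123 by limma), past the threshold, and the siRNA1 value was 0.09 (adjusted p = 0.333 by limma). The difference between the siRNAs went from -0.17 to -0.22 (adjusted p = 0.0416 by limma). The dimmer *Gnas* probe had values of the other sign, -0.56 ± 0.34 (SE, adjusted p = 0.254 by limma) and -0.21 ± 0.37 (SE, adjusted p = 0.771 by limma), neither of them called.

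The inhibitory subunits *Gnai1*, *Gnai2*, and *Gnai3* restrain adenylyl cyclase. *Gnai3* read 119%, 90.8%, 90.6%, and 102% on control arrays, 94.2%, 87.3%, 92.2%, and 83.0% with siRNA1, and 70.4%, 63.6%, and 62.7% with siRNA2. The siRNA2 arrays were all below the lowest of the other 8 arrays. Its log2 fold change was -0.17 ± 0.10 (SE, adjusted p = 0.253 by limma) with siRNA1 and -0.61 ± 0.11 (SE, adjusted p = 0.00261 by limma) with siRNA2, and the siRNAs differed by 0.44 ± 0.11 (SE, adjusted p = 0.0123 by limma). *Gnai1* and *Gnai2* fell with siRNA1 instead, at log2 fold changes of -0.61 (limma adjusted p = 0.0475) and -0.53 (limma adjusted p = 0.0207), and their values with siRNA2 were -0.04 and -0.07, not called. The siRNAs differed by -0.57 ± 0.22 (SE, adjusted p = 0.0887 by limma) for *Gnai1* and -0.45 ± 0.16 (SE, adjusted p = 0.061 by limma) for *Gnai2*. With slide as a block these differences were -0.57 (adjusted p = 0.00213 by limma) and -0.46 (adjusted p = 0.00378 by limma), and the falls with siRNA1 were -0.70 (adjusted p = 0.00054 by limma) and -0.59 (adjusted p = 0.000726 by limma). Without the block, the siRNA1 call of *Gnai1* was lost without control arrays 2, 3, or 4, siRNA1 arrays 1, 2, or 3, or siRNA2 array 2 (limma adjusted p 0.0604 to 0.128) and that of *Gnai2* without control arrays 3 or 4 or siRNA1 arrays 1 or 3 (limma adjusted p 0.0576 to 0.0622), and a dimmer probe of *Gnai1* stood at 0.01 ± 0.29 (SE, adjusted p = 0.991 by limma) with siRNA1.

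Of the 4 adenylyl cyclases, which make cAMP, *Adcy9* and *Adcy3* rose with both siRNAs, *Adcy7* moved in opposite directions, and *Adcy6* was not called. *Adcy9* read 80.5%, 97.8%, 116%, and 109.9% on control arrays, 154%, 183%, 164%, and 193% with siRNA1, and 137%, 178%, and 198% with siRNA2, and every siRNA array was above the highest control array. The log2 fold changes were 0.79 ± 0.14 (SE, adjusted p = 0.0021 by limma) and 0.76 ± 0.16 (SE, adjusted p = 0.00591 by limma), and the siRNAs differed by 0.03 ± 0.16 (SE, adjusted p = 0.907 by limma), which was not called.

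*Adcy3* stood at 101%, 88.9%, 115%, and 97.1% on the control arrays, at 137%, 138%, 174%, and 137% with siRNA1, and at 145%, 126%, and 129% with siRNA2, again without overlap with the control arrays. Its brighter probe rose by 0.54 ± 0.11 (SE, adjusted p = 0.0039 by limma) with siRNA1 and 0.41 ± 0.12 (SE, adjusted p = 0.033 by limma) with siRNA2. The dimmer probe rose by 0.49 ± 0.11 (SE, adjusted p = 0.00594 by limma) with siRNA1 and had 0.35 ± 0.11 (SE, adjusted p = 0.0556 by limma) with siRNA2, which became 0.35 (adjusted p = 0.0413 by limma) with slide as a block. The siRNA2 call of the brighter probe was lost without control arrays 1, 2, or 4 or siRNA2 arrays 1, 2, or 3 (limma adjusted p 0.0627 to 0.112).

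*Adcy7* was a dim probe whose 3 groups were all apart from each other. It read 118%, 90.3%, 102%, and 92.4% on control arrays, 73.8%, 47.0%, 74.98%, and 61.5% with siRNA1, and 158%, 137%, and 149% with siRNA2. Its log2 fold change was -0.66 ± 0.15 (SE, adjusted p = 0.00716 by limma) with siRNA1 and 0.56 ± 0.16 (SE, adjusted p = 0.0322 by limma) with siRNA2, and the difference of -1.22 ± 0.16 (SE, adjusted p = 0.00029 by limma) between the siRNAs exceeded 2-fold. The rise with siRNA2 was lost without control arrays 2, 3, or 4 or siRNA2 arrays 1, 2, or 3 (limma adjusted p 0.06 to 0.0969), while the fall and the difference held whichever array was left out. With the replaced-background normexp correction the values were -0.37 with siRNA1, 0.26 with siRNA2, and -0.63 between the siRNAs, all called and none of them 2-fold, and the planned normexp correction turned the siRNA1 value to 0.60. *Adcy6* had -0.09 with siRNA1 and 0.25 with siRNA2.

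**Figure D2:**
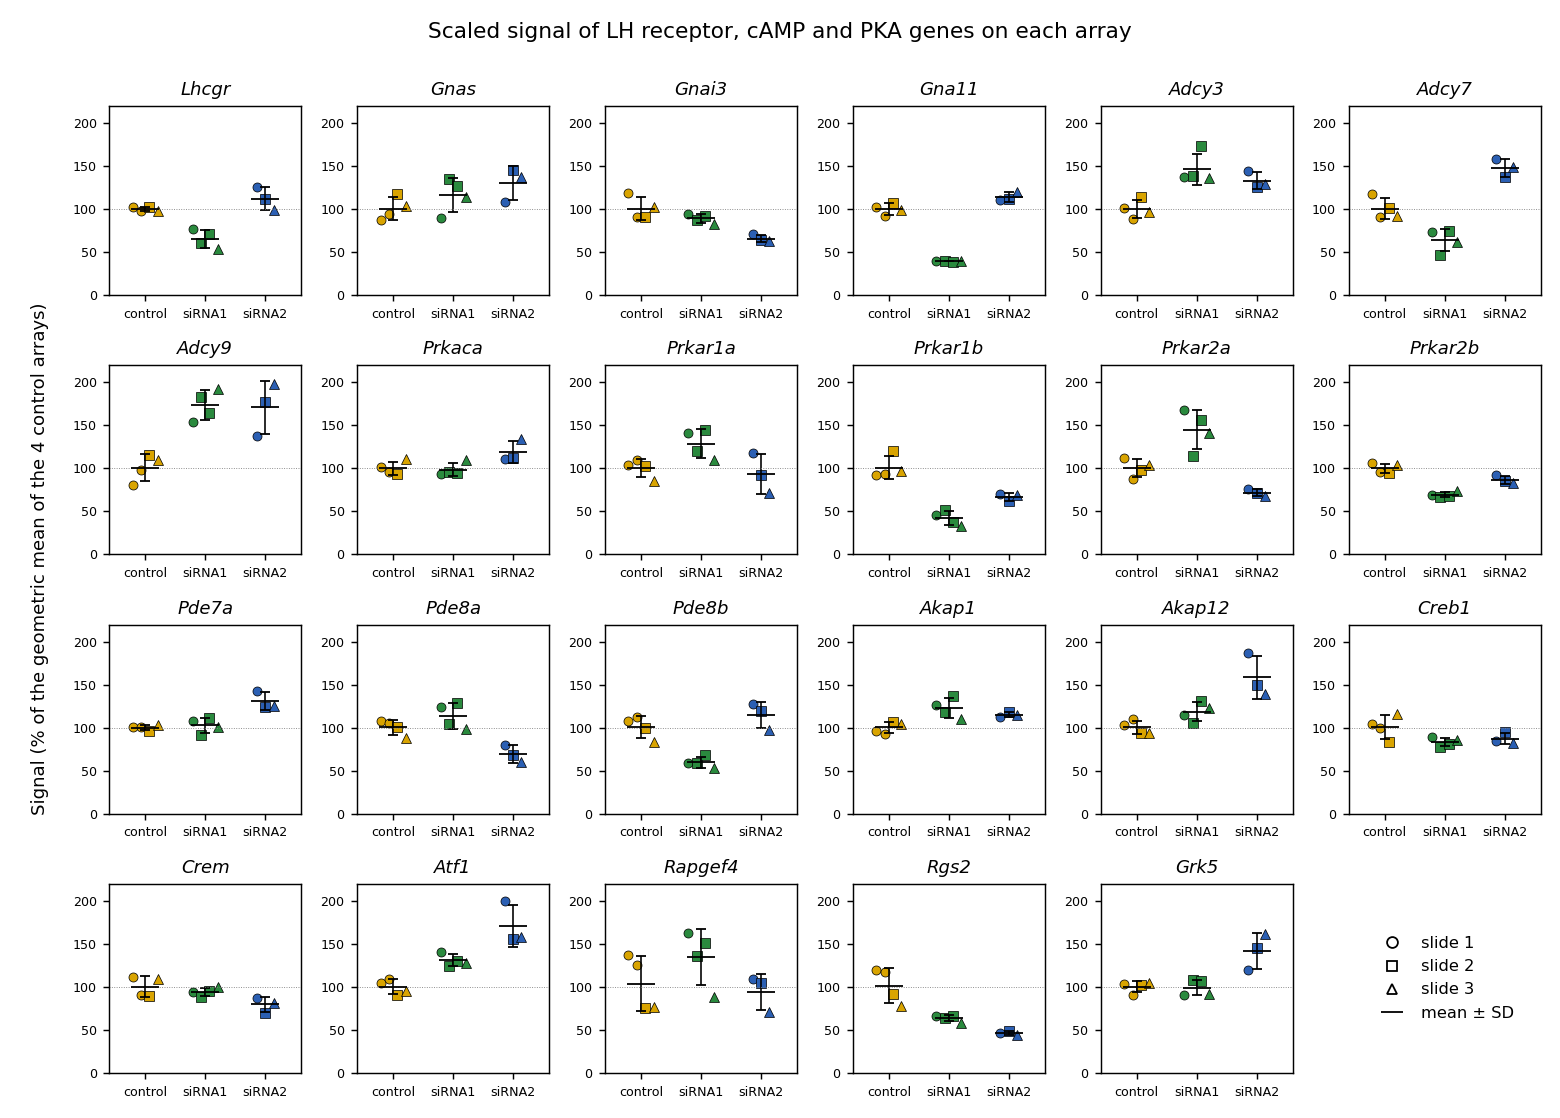
Signal of 23 genes of the cascade on each of the 11 arrays, in percent of the mean control level (geometric mean), for control (yellow), siRNA1 (green), and siRNA2 (blue), with the brightest probe of each gene, the arrays' slides as symbols, and bars for the mean ± SD (n = 4, 4, and 3). *Gna11* stood at 39.0% to 39.4% on all 4 siRNA1 arrays, *Adcy9* was at 137% or more on every siRNA array, and *Rgs2* was below the control arrays with both siRNAs.

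The 2 catalytic subunits of PKA were not called with either siRNA. *Prkaca* read 102%, 95.7%, 92.9%, and 110.4% on control arrays, 93.0%, 96.2%, 94.9%, and 109.8% with siRNA1, and 111%, 113%, and 134% with siRNA2. The siRNA2 arrays lay above the others by a small margin, and the siRNA1 arrays overlapped the control arrays. The log2 fold change of *Prkaca* was -0.03 ± 0.09 (SE, adjusted p = 0.877 by limma) with siRNA1 and 0.25 ± 0.10 (SE, adjusted p = 0.127 by limma) with siRNA2, the latter 0.23 (adjusted p = 0.028 by limma) with slide as a block. The difference between the siRNAs was -0.27, or -0.25 (adjusted p = 0.0156 by limma) with the block. The 2 probes of *Prkacb* had 0.17 and 0.18 with siRNA1 and -0.25 and 0.11 with siRNA2. The brighter one differed between the siRNAs by 0.42, or 0.43 (adjusted p = 0.0465 by limma) with slide as a block.

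All 4 genes for regulatory subunits, which hold PKA inactive until cAMP binds, had a probe that changed in at least 1 comparison, or did so with slide as a block. *Prkar2a* encodes the RII alpha subunit and moved in opposite directions with the siRNAs. Its brightest probe read 112%, 87.2%, 98.2%, and 104% on control arrays, 168%, 115%, 156%, and 141% with siRNA1, and 75.9%, 70.8%, and 68.2% with siRNA2. The lowest siRNA1 array was above the highest control array, and the highest siRNA2 array was below the lowest control array. In log2 units this came to 0.52 ± 0.12 (SE, adjusted p = 0.0092 by limma) with siRNA1 and -0.48 ± 0.13 (SE, adjusted p = 0.0274 by limma) with siRNA2, and the difference between the siRNAs was 1.00 ± 0.13 (SE, adjusted p = 0.000304 by limma).

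The other probes of *Prkar2a* gave 0.67 ± 0.14 (SE, adjusted p = 0.00428 by limma) and 0.59 ± 0.11 (SE, adjusted p = 0.00317 by limma) with siRNA1 and -0.42 ± 0.15 (SE, adjusted p = 0.0734 by limma) and -0.52 ± 0.12 (SE, adjusted p = 0.0131 by limma) with siRNA2. Between the siRNAs these probes differed by 1.09 and 1.11, so that all 3 probes of this gene had the same sign in each comparison. The call of the fall with siRNA2 was lost for the brightest probe without control arrays 1, 3, or 4 or siRNA2 arrays 2 or 3 (limma adjusted p 0.0537 to 0.0863) and for the dimmest without siRNA2 array 1 (limma adjusted p = 0.0547), whereas the rise with siRNA1 and the difference held without each array. On the dimmest probe the replaced-background normexp correction gave 0.26 with siRNA1, -0.26 with siRNA2, no longer called, and 0.52 between the siRNAs.

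*Prkar1b*, the RI beta subunit, fell with both siRNAs. It was at 92.3%, 93.1%, 120.3%, and 96.8% on control arrays, at 45.9%, 51.7%, 38.0%, and 32.4% with siRNA1, and at 70.5%, 61.6%, and 68.5% with siRNA2, and the 3 groups did not overlap. The log2 fold changes were -1.27 ± 0.15 (SE, adjusted p = 0.000101 by limma) and -0.58 ± 0.16 (SE, adjusted p = 0.0244 by limma), and the fall was larger with siRNA1, with a difference of -0.69 ± 0.16 (SE, adjusted p = 0.00821 by limma). Without control array 3 or siRNA2 arrays 2 or 3 the siRNA2 call was lost (limma adjusted p 0.0561 to 0.0961). For this dim probe the replaced-background normexp correction gave -0.72 with siRNA1, -0.42 between the siRNAs, and -0.30 with siRNA2, the last no longer called (limma adjusted p = 0.0645). The planned normexp correction turned both values against control, to 0.29 and 0.27. A second probe of *Prkar1b* was above background on 6 of the 11 arrays and was not tested.

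*Prkar2b*, the RII beta subunit, was at 106%, 95.7%, 95.2%, and 104% with non-targeting RNA, at 69.4%, 67.0%, 67.8%, and 73.9% with siRNA1, and at 92.0%, 85.4%, and 82.8% with siRNA2. All siRNA arrays were below the control arrays, with the siRNA1 arrays lowest. The fit gave a log2 change of -0.53 ± 0.07 (SE, adjusted p = 0.000445 by limma) with siRNA1 and -0.21 ± 0.08 (SE, adjusted p = 0.106 by limma) with siRNA2, where the second did not pass the threshold. The siRNAs differed by -0.32 ± 0.08 (SE, adjusted p = 0.0149 by limma). That call was lost without siRNA2 array 1 (limma adjusted p = 0.0547) and with scaling by the median (limma adjusted p = 0.147).

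*Prkar1a*, the RI alpha subunit, whose promoter carries the full response element shown above, read 104%, 109.5%, 102%, and 85.6% on control arrays, 141%, 119.9%, 145%, and 109.6% with siRNA1, and 118%, 92.1%, and 71.7% with siRNA2. The siRNA1 arrays only just cleared the control arrays, and the siRNA2 arrays spread across them. The corresponding log2 fold change was 0.36 ± 0.15 (SE, adjusted p = 0.113 by limma) with siRNA1 and -0.12 ± 0.17 (SE, adjusted p = 0.708 by limma) with siRNA2. With slide as a block the siRNA1 value was 0.39 (adjusted p = 0.0106 by limma) and the difference between the siRNAs, 0.48 before, was 0.46 (adjusted p = 0.007 by limma).

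Of the 4 phosphodiesterases that could be measured, *Pde8b*, *Pde8a*, and *Pde7a* differed between the siRNAs and *Pde4a* did not detectably (0.12 ± 0.16 (SE, adjusted p = 0.62 by limma)). *Pde8a* and *Pde8b* are cAMP-specific enzymes of high affinity that are known to limit steroid synthesis in Leydig cells. *Pde8b* read 108%, 112%, 99.1%, and 83.3% on control arrays, 58.5%, 58.6%, 68.1%, and 53.5% with siRNA1, and 127%, 119%, and 97.4% with siRNA2. Only the siRNA1 arrays were apart from the control arrays, with a log2 fold change of -0.75 ± 0.12 (SE, adjusted p = 0.00112 by limma), against 0.19 ± 0.13 (SE, adjusted p = 0.398 by limma) with siRNA2 and a difference of -0.94 ± 0.13 (SE, adjusted p = 0.000464 by limma) between the siRNAs.

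*Pde8a* stood at 108%, 105%, 100.4%, and 88.1% on the control arrays, 124%, 104%, 128%, and 97.9% with siRNA1, and 80.3%, 68.4%, and 59.9% with siRNA2. Here the siRNA2 arrays were apart and low. The log2 fold change of *Pde8a* was 0.17 ± 0.12 (SE, adjusted p = 0.327 by limma) with siRNA1 and -0.53 ± 0.13 (SE, adjusted p = 0.0161 by limma) with siRNA2, the siRNAs differed by 0.71 ± 0.13 (SE, adjusted p = 0.00262 by limma), and the siRNA2 call was lost without siRNA2 arrays 2 or 3 (limma adjusted p 0.0562 to 0.0683).

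*Pde7a*, another cAMP-specific enzyme, read 100.5%, 101%, 95.9%, and 103% on control arrays, 108%, 91.1%, 111%, and 101% with siRNA1, and 143%, 124%, and 126% with siRNA2. It rose with siRNA2, by 0.39 ± 0.09 (SE, adjusted p = 0.0134 by limma), all siRNA2 arrays being above the rest, and had 0.03 ± 0.09 (SE, adjusted p = 0.811 by limma) with siRNA1. The difference between the siRNAs was -0.35 ± 0.09 (SE, adjusted p = 0.0169 by limma). Without siRNA2 array 1 the rise (limma adjusted p = 0.0557) and the difference (limma adjusted p = 0.0638) were lost, and the rise was 0.25 with the replaced-background normexp correction. Scaling by the median also ended the call of the rise (limma adjusted p = 0.0739) and of the difference (limma adjusted p = 0.128). A dimmer probe of *Pde7a* had 0.31 ± 0.12 (SE, adjusted p = 0.102 by limma) with siRNA2. *Pde4a* rose with siRNA1, by 0.46 ± 0.15 (SE, adjusted p = 0.0386 by limma), had 0.33 ± 0.16 (SE, adjusted p = 0.184 by limma) with siRNA2, or 0.28 (adjusted p = 0.0464 by limma) with slide as a block. The first call was lost without control arrays 1, 2, or 3 or siRNA1 arrays 2, 3, or 4 (limma adjusted p 0.0673 to 0.0984) and with the replaced-background normexp correction, where the rise was 0.06.

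**Figure D3:**
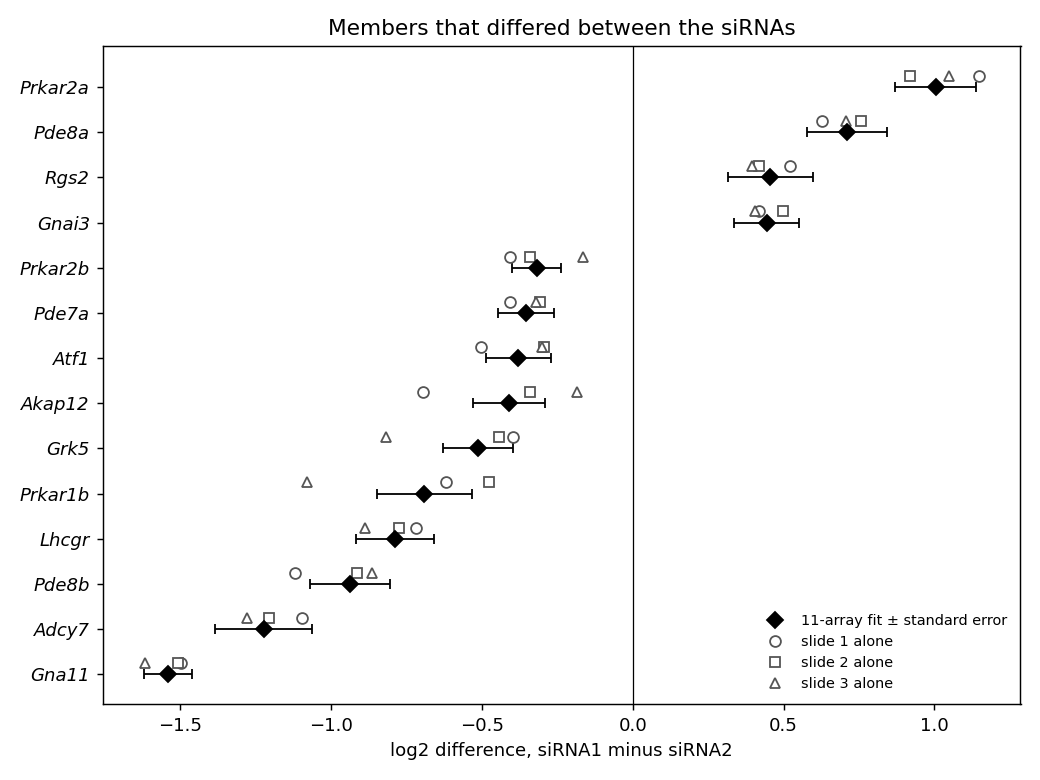
The log2 difference between siRNA1 and siRNA2 for the 14 genes in which it was called on the brightest probe, among the genes given array by array (black diamonds, with the standard error), and the same difference on each slide alone (open symbols). *Prkar2a* was the highest at 1.00 and *Gna11* the lowest at -1.54, and each open symbol lay on the same side of 0 as its diamond. The open symbols come from the same arrays as the diamonds.

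Anchoring proteins place PKA at particular membranes, and 2 of the 5 that had a probe changed. *Akap1* anchors PKA at the outer mitochondrial membrane. Its brightest probe read 96.2%, 93.2%, 107%, and 104% on control arrays, 126%, 118%, 137%, and 110.3% with siRNA1, and 112%, 118%, and 115% with siRNA2, all siRNA arrays being above the control arrays. The 3 probes of *Akap1* rose with siRNA1, by 0.29 ± 0.09 (SE, adjusted p = 0.0267 by limma), 0.48 ± 0.13 (SE, adjusted p = 0.0154 by limma), and 0.57 ± 0.14 (SE, adjusted p = 0.0125 by limma). With siRNA2 they had 0.20, 0.23, and 0.33 and were not called. The smallest of these rises lost its call without control arrays 1 or 2 or siRNA1 arrays 1 or 3 (limma adjusted p 0.0633 to 0.0836).

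*Akap12*, a scaffold of PKA and protein kinase C at the plasma membrane, read 103%, 109.8%, 94.1%, and 93.7% on control arrays, 115%, 105%, 131%, and 122% with siRNA1, and 187%, 149%, and 139% with siRNA2. The siRNA2 arrays were above all others, and the siRNA1 arrays overlapped the control arrays. On the log2 scale the change was 0.24 ± 0.11 (SE, adjusted p = 0.135 by limma) with siRNA1 and 0.65 ± 0.12 (SE, adjusted p = 0.0032 by limma) with siRNA2. The difference of -0.41 ± 0.12 (SE, adjusted p = 0.029 by limma) between the siRNAs was lost without siRNA1 arrays 1 or 2 or siRNA2 arrays 1 or 2 (limma adjusted p 0.0551 to 0.102), and was -0.70 on slide 1 and -0.19 on slide 3. Scaling by the median ended that call as well (limma adjusted p = 0.129). *Akap8*, a nuclear protein, *Akap9*, at the Golgi apparatus and centrosome, and *Akap10* had 7 probes, of which none was called, with log2 fold changes between -0.06 and 0.30 with siRNA1 and between -0.10 and 0.18 with siRNA2.

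In the CREB family, *Atf1* rose with both siRNAs, while *Creb1* was not called. *Atf1* encodes an activator that binds the response element alone or with CREB. Its brightest probe was at 105%, 109.5%, 91.0%, and 95.6% on control arrays, at 141%, 124%, 131%, and 128% with siRNA1, and at 199.5%, 156%, and 158% with siRNA2, and the 3 groups did not overlap. Against control, the log2 change was 0.39 ± 0.10 (SE, adjusted p = 0.0147 by limma) with siRNA1 and 0.77 ± 0.11 (SE, adjusted p = 0.000636 by limma) with siRNA2.

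The difference between the siRNAs on that probe, -0.38 ± 0.11 (SE, adjusted p = 0.0266 by limma), was lost without siRNA1 arrays 2, 3, or 4 or siRNA2 array 1 (limma adjusted p 0.054 to 0.0939) and was -0.20 with the mean over its probes. The second probe of *Atf1* rose by 0.48 ± 0.16 (SE, adjusted p = 0.0433 by limma) with siRNA1 and 0.68 ± 0.17 (SE, adjusted p = 0.0179 by limma) with siRNA2. Its calls were lost without control arrays 3 or 4, siRNA1 arrays 1, 2, or 3, or siRNA2 arrays 1 or 2 for siRNA1 (limma adjusted p 0.0505 to 0.111) and without siRNA2 arrays 1 or 2 for siRNA2 (limma adjusted p 0.0632 to 0.069). The third had 0.61 ± 0.21 (SE, adjusted p = 0.0565 by limma) and 0.63 ± 0.23 (SE, adjusted p = 0.0887 by limma), and with slide as a block 0.67 (adjusted p = 0.00665 by limma) and 0.70 (adjusted p = 0.00956 by limma).

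*Creb1*, which encodes CREB itself, read 104%, 99.6%, 83.2%, and 116% on control arrays, 88.7%, 77.7%, 81.3%, and 85.4% with siRNA1, and 84.6%, 94.8%, and 82.5% with siRNA2 on its brightest probe, with overlap between the groups. In log2 units this came to -0.27 ± 0.11 (SE, adjusted p = 0.0874 by limma) with siRNA1 and -0.20 ± 0.11 (SE, adjusted p = 0.285 by limma) with siRNA2. The dimmer probes were on the other side of 0, at 0.22 ± 0.08 (SE, adjusted p = 0.0588 by limma) and 0.28 ± 0.11 (SE, adjusted p = 0.0938 by limma) with siRNA1 and at 0.20 and 0.29 with siRNA2. With slide as a block, the siRNA1 values of these dimmer probes were 0.24 (adjusted p = 0.0253 by limma) and 0.29 (adjusted p = 0.028 by limma), and the siRNA2 value of the dimmest was 0.32 (adjusted p = 0.0306 by limma). No direction can be given for *Creb1* as a gene.

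*Crem* encodes activators and repressors that share the response element with CREB, among them an inducible repressor. Its brightest probe read 112%, 91.1%, 89.8%, and 109.5% on control arrays, 94.4%, 88.5%, 94.95%, and 100% with siRNA1, and 86.9%, 70.0%, and 81.8% with siRNA2, where the siRNA2 arrays were below all others. The fit gave a log2 change of -0.08 ± 0.10 (SE, adjusted p = 0.598 by limma) with siRNA1 and -0.34 ± 0.11 (SE, adjusted p = 0.0599 by limma) with siRNA2, the latter -0.33 (adjusted p = 0.0307 by limma) with slide as a block. All 5 probes of *Crem* had a value between -0.26 and -0.34 with siRNA2 and between -0.08 and 0.02 with siRNA1. Probes 2 and 5 in order of signal fell with siRNA2, at -0.28 ± 0.09 (SE, adjusted p = 0.044 by limma) and -0.33 ± 0.10 (SE, adjusted p = 0.0394 by limma), and differed between the siRNAs by 0.30 ± 0.09 (SE, adjusted p = 0.0288 by limma) and 0.33 ± 0.10 (SE, adjusted p = 0.0301 by limma). These 4 calls were near the threshold. The fall with siRNA2 was lost for probe 2 without control arrays 1, 2, 3, or 4, siRNA1 arrays 2, 3, or 4, or siRNA2 arrays 2 or 3 (limma adjusted p 0.0549 to 0.194) and for probe 5 without control arrays 1, 2, or 4, siRNA1 arrays 2, 3, or 4, or siRNA2 arrays 2 or 3 (limma adjusted p 0.0507 to 0.161). The difference between the siRNAs was lost for probe 2 without siRNA1 arrays 1, 3, or 4 or siRNA2 arrays 2 or 3 (limma adjusted p 0.053 to 0.136) and for probe 5 without siRNA1 arrays 1 or 4 or siRNA2 arrays 2 or 3 (limma adjusted p 0.0611 to 0.128). Both calls of probe 5 were also lost with the replaced-background normexp correction. The brightest probe differed between the siRNAs by 0.25, or 0.28 (adjusted p = 0.045 by limma) with slide as a block. The coactivators *Crtc2* and *Crtc3* were not called, at 0.01 and -0.18 with siRNA1 and 0.03 and -0.06 with siRNA2.

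**Figure D4:**
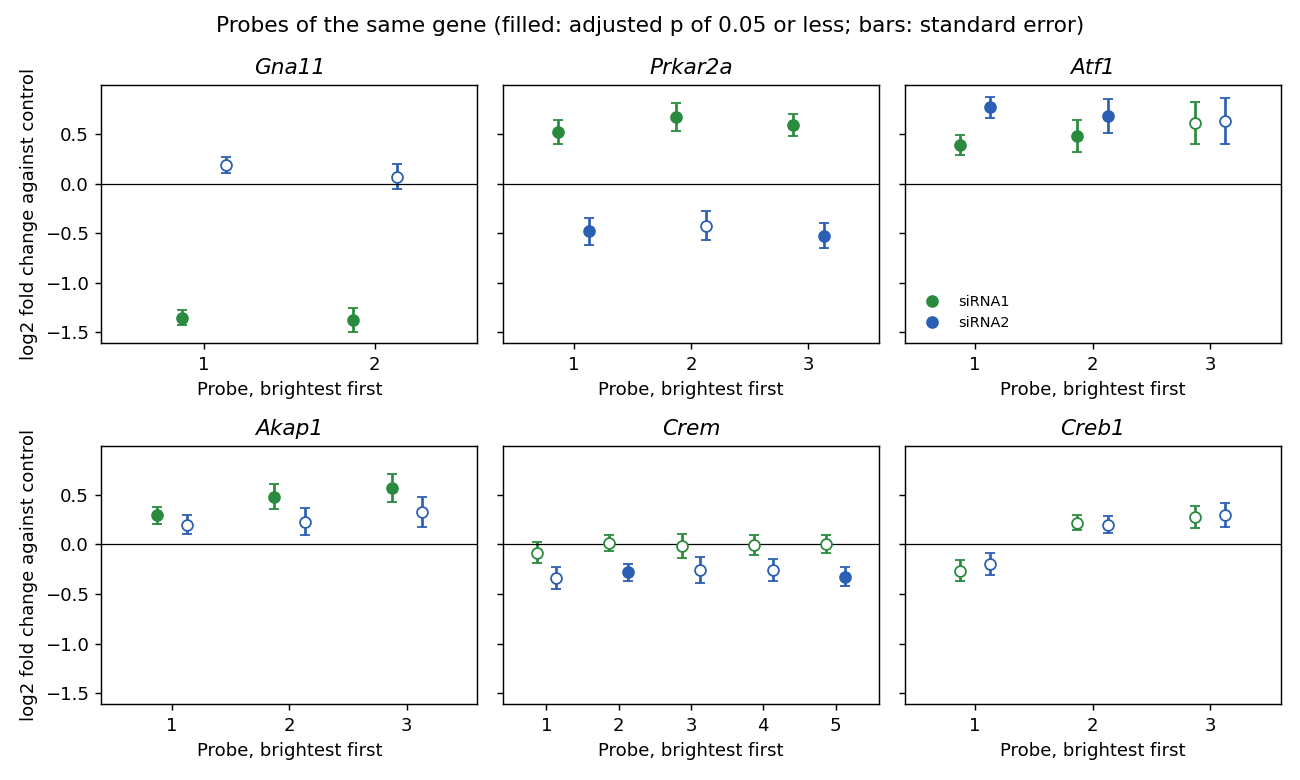
The log2 fold change against control of every tested probe of 6 genes, ordered from the brightest probe, for siRNA1 (green) and siRNA2 (blue), with bars for the standard error and filled points for an adjusted p of 0.05 or less. The probes of *Gna11*, *Prkar2a*, *Atf1*, and *Akap1* lay on the same side of 0 for each siRNA, those of *Crem* near 0 with siRNA1 and below it with siRNA2, and those of *Creb1* on both sides.

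The Epac exchange factors carry cAMP signals that do not pass through PKA. *Rapgef3* was not called, with -0.30 ± 0.15 (SE, adjusted p = 0.151 by limma) and -0.42 ± 0.16 (SE, adjusted p = 0.0948 by limma), the latter -0.46 (adjusted p = 0.0445 by limma) with slide as a block. The brighter of the 2 probes of *Rapgef4* read 137%, 126%, 75.2%, and 77.0% on control arrays, 163%, 136%, 151%, and 88.8% with siRNA1, and 109%, 105%, and 70.6% with siRNA2, with overlap between all groups, and had 0.39 ± 0.25 (SE, adjusted p = 0.284 by limma) and -0.11 ± 0.27 (SE, adjusted p = 0.858 by limma). With slide as a block its siRNA1 value was 0.48 (adjusted p = 0.0257 by limma), and its difference between the siRNAs, 0.50 before, was 0.49 (adjusted p = 0.0322 by limma). The dimmer probe read 103%, 108%, 88.1%, and 102% on control arrays, 138%, 139%, 117%, and 123.4% with siRNA1, and 105%, 94.3%, and 81.8% with siRNA2. There the siRNA1 arrays were above all others. It rose with siRNA1, by 0.37 ± 0.10 (SE, adjusted p = 0.0235 by limma), had -0.10 ± 0.11 (SE, adjusted p = 0.633 by limma) with siRNA2, and differed between the siRNAs by 0.47 ± 0.11 (SE, adjusted p = 0.0116 by limma). Its mean signal was 12.7 on control arrays, close to the 6.94 to 8.90 at which signals began to count as above background. The siRNA1 call was lost without control array 3 or siRNA1 arrays 1 or 2 (limma adjusted p 0.0585 to 0.0694), the difference without siRNA2 array 3 (limma adjusted p = 0.0555), and both values were below 0 with the replaced-background normexp correction.

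Of the genes that dampen the receptor's signal, *Rgs2* fell with both siRNAs and *Grk5* rose with siRNA2. *Rgs2* encodes a protein that speeds the return of G proteins to rest, above all of the Gq class. It read 119.5%, 117%, 91.8%, and 77.8% on control arrays, 65.7%, 63.7%, 66.0%, and 58.3% with siRNA1, and 45.8%, 48.5%, and 44.3% with siRNA2. The 3 groups did not overlap, and the control arrays were spread more widely than the siRNA arrays of either group. The log2 fold change of *Rgs2* was -0.66 ± 0.13 (SE, adjusted p = 0.0035 by limma) with siRNA1 and -1.11 ± 0.14 (SE, adjusted p = 0.000306 by limma) with siRNA2, the latter the only change of 2-fold or more against control with siRNA2 among the 61 probes. The control arrays of slides 1, 2, and 3 were at different levels, and the log2 fold change on each slide was -0.85, -0.50, and -0.42 with siRNA1 and -1.37, -0.92, and -0.81 with siRNA2. The difference of 0.46 ± 0.14 (SE, adjusted p = 0.0372 by limma) between the siRNAs was lost without siRNA1 arrays 1, 2, or 3 or siRNA2 arrays 1, 2, or 3 (limma adjusted p 0.066 to 0.112) and with the replaced-background normexp correction (0.36, limma adjusted p = 0.0765).

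*Grk5*, a kinase that phosphorylates activated receptors, read 103%, 90.8%, 102%, and 105% on control arrays, 91.2%, 108%, 106%, and 91.6% with siRNA1, and 120.0%, 146%, and 161% with siRNA2. The siRNA2 arrays were above the rest and the siRNA1 arrays overlapped the control arrays. Its brighter probe had -0.02 ± 0.11 (SE, adjusted p = 0.936 by limma) with siRNA1 and rose by 0.50 ± 0.12 (SE, adjusted p = 0.0122 by limma) with siRNA2, and its dimmer probe had -0.13 ± 0.10 (SE, adjusted p = 0.367 by limma) and rose by 0.47 ± 0.11 (SE, adjusted p = 0.0106 by limma). Between the siRNAs the probes differed by -0.51 ± 0.12 (SE, adjusted p = 0.0082 by limma) and -0.59 ± 0.11 (SE, adjusted p = 0.00201 by limma). The siRNA2 call of the brighter probe was lost without siRNA2 arrays 2 or 3 (limma adjusted p 0.0516 to 0.0529). Both siRNA2 calls were lost with the replaced-background normexp correction, where the values were 0.26 (limma adjusted p = 0.052) for the brighter and 0.19 (limma adjusted p = 0.102) for the dimmer. The differences between siRNA1 and siRNA2 stayed called. *Arrb1*, an arrestin that uncouples receptors, fell with siRNA1, at a log2 fold change of -0.31 ± 0.10 (SE, adjusted p = 0.0391 by limma), and had -0.23 ± 0.11 (SE, adjusted p = 0.169 by limma) with siRNA2. A dimmer probe of *Arrb1* had -0.22 and was not called. The call was lost without control arrays 2, 3, or 4, siRNA1 arrays 1, 2, 3, or 4, or siRNA2 array 2 (limma adjusted p 0.055 to 0.106). Scaling by the median (limma adjusted p = 0.154) and quantile normalization (limma adjusted p = 0.0614) ended it too.

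Other genes of the pathway were looked at in a list of 70, of which 66 had a probe and 74 probes were tested. With siRNA1, 6 of these 74 probes rose and 12 fell, with siRNA2 2 rose and 4 fell, and between the siRNAs 13 were higher with siRNA1 and 6 lower, around medians of 0.00, -0.07, and 0.07. The shares of all tested probes called in each direction are those given above. The 6 called probes with the smallest adjusted p and a fold change of 1.5 or more belong to *Pde1a*, *Gng5*, *Rgs19*, and *Gipc1*. *Gng5*, a G protein gamma subunit, read 38.1%, 44.5%, 36.7%, and 47.1% with siRNA1, against 92.2%, 107%, 98.4%, and 103% on control arrays and 87.8%, 104%, and 121% with siRNA2. Only the siRNA1 arrays were low, with -1.27 ± 0.12 (SE, adjusted p = 2.45e-05 by limma) on that probe and -1.26 ± 0.17 (SE, adjusted p = 0.000272 by limma) on the other, against 0.05 and 0.13 with siRNA2. *Gipc1*, a PDZ protein that binds G protein-coupled receptors, fell with siRNA1 as well, at a log2 fold change of -0.95 ± 0.14 (SE, adjusted p = 0.000531 by limma), and had -0.34 ± 0.15 (SE, adjusted p = 0.149 by limma) with siRNA2.

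*Pde1a*, a phosphodiesterase activated by calcium and calmodulin, rose with siRNA1, by 1.00 ± 0.09 (SE, adjusted p = 1.50e-05 by limma) and 1.49 ± 0.16 (SE, adjusted p = 7.50e-05 by limma) on the 2 probes that the naming rule took. These probes had -0.10 and -0.04 with siRNA2 and were not called. Both probes were dim, and with the replaced-background normexp correction their rise was 0.29, still called, and 0.19 (limma adjusted p = 0.175). Of the other probes of *Pde1a*, 1 rose by 1.41 and 1 had 0.20 with siRNA1, the latter not called. *Rgs19*, which acts on inhibitory alpha subunits, fell with siRNA2, at a log2 fold change of -0.50 ± 0.09 (SE, adjusted p = 0.00309 by limma), had 0.13 ± 0.08 (SE, adjusted p = 0.277 by limma) with siRNA1, and differed between the siRNAs by 0.63 ± 0.09 (SE, adjusted p = 0.000523 by limma).

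Genes that are known to carry a cAMP response element and to answer to cAMP formed a list of 18, with 18 probes tested. With siRNA1, 2 of the 18 probes rose and 5 fell (against 11.8% and 15.2% of all tested probes), with siRNA2 2 rose and 3 fell (against 7.70% and 10.7%), and the medians of the log2 fold change were -0.16 and -0.02. The probes of this list that rose stood at 0.46 or less with siRNA1 and 0.53 or less with siRNA2. The immediate early genes *Egr1* and *Nr4a2*, chosen outside the naming rule after their values were seen, fell with both siRNAs. That rule left out probes with smaller adjusted p than *Egr1*. Among them 1 probe of *Gng12*, of the pathway list, rose with both siRNAs (0.69 and 0.68). *Egr1* had -0.72 ± 0.19 (SE, adjusted p = 0.0168 by limma) with siRNA1 and -0.93 ± 0.21 (SE, adjusted p = 0.00931 by limma) with siRNA2. *Nr4a2* had -1.09 ± 0.23 (SE, adjusted p = 0.00517 by limma) with siRNA1 and was not well above background on any siRNA2 array, where it was at least 1.83-fold lower than on the control arrays (limma adjusted p = 0.00131). For *Nr4a2*, a dim probe, the replaced-background normexp correction gave -0.41 with siRNA1 and -0.23 with siRNA2, the latter not called (limma adjusted p = 0.105). The 2 probes of *Star*, which encodes the protein that carries cholesterol into mitochondria under cAMP control, were not called, at 0.06 and 0.03 with siRNA1 and 0.16 and 0.29 with siRNA2.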

How the data were processed

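Single-colour Agilent arrays of 11 samples were analysed. The deposited intensity values of each array had been background-subtracted and spatially detrended by Agilent Feature Extraction 9.5.1.1, per the file headers, without normalization between arrays. The scanner software's marks for outlier spots and for spots well above background were used as deposited by the authors. A table of the authors, with group averages of probes they had selected by a t-test and fold change, was not used.

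Control and outlier spots were left out, log2 intensity was taken minus each array's 75th percentile, and spots of a probe were averaged. Probes were named through RefSeq accessions (GRCm38.p6), and a probe was tested where all arrays of some group held it well above background. The resulting 24250 of 41174 probes entered 1 fit of the 3 groups (limma 3.58.1, R 4.3.3, lmFit and eBayes, Benjamini-Hochberg adjustment). The number of arrays, 3 or 4 per group, limits the precision. Only the fit was tested on simulated data, with independent noise on each array. Scaling, filtering, probe naming, and effects of the slides were not part of that test. Genes given array by array are those with a called probe, at most 18 by smallest adjusted p, and 6 genes of the core of the cascade whatever their values, each by its brightest probe, with other probes that were called or had the opposite sign of a called one. Of the pathway and cAMP-responsive lists, at most 6 called probes with a fold change of 1.5 or more are named. Beyond these, *Egr1* and *Nr4a2* were named after their values were seen, and 1 probe of *Gng12* is given beside them. The members and lists were chosen with earlier results of these data known.

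Alternatives changed the background correction, the scaling, the filter on dim probes, outlier spots, slide or replicate number as a block, the arrays in the fit, the variance model, the test, the call rule, the mean over probes, and the arrays left out. Normexp with local backgrounds over 2 times the array's median replaced by that median was added after seeing the data.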

Additional observations from a re-analysis of the deposited data

Results flagged for a closer look

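In 2 of the 46 groups of 4 arrays examined, 1 array was far from the other 3 for the spread of its group, and chance alone marks about 1 group in 20. These were siRNA1 array 3 for *Gna11*, the lowest at 38.98%, where the group spanned less than 1 percentage point, and siRNA1 array 3 for *Adcy3*, the highest at 174%.

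The effects of the siRNAs, which target the same gene and share the control arrays, differed from each other by the test of siRNA1 against siRNA2 on the brightest probe of 14 of the genes given array by array. Dimmer probes of *Crem* and *Rapgef4* were called as well, which makes 16 genes with any called probe. Of all tested probes, 11.7% were called higher and 11.8% lower in this comparison. It also served to choose the genes given array by array, so these counts are no separate test. The log2 value with siRNA1 was above that with siRNA2 by 1.00 for *Prkar2a*, 0.71 for *Pde8a*, 0.46 for *Rgs2*, and 0.44 for *Gnai3*. The difference of siRNA1 minus siRNA2 was -1.54 for *Gna11*, -1.22 for *Adcy7*, -0.94 for *Pde8b*, -0.79 for *Lhcgr*, -0.69 for *Prkar1b*, -0.51 for *Grk5*, -0.41 for *Akap12*, -0.38 for *Atf1*, -0.35 for *Pde7a*, and -0.32 for *Prkar2b*. Of these genes, *Prkar1b*, *Rgs2*, and *Atf1* moved the same way against control with both siRNAs and by different amounts, whereas *Prkar2a* and *Adcy7* were called in opposite directions.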

How the results depend on the processing

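The next counts leave out the rules that also require 2-fold. Outside the planned normexp correction, 60 of the 62 called values kept their sign under every other alternative and 35 also stayed called. The exceptions were both values of the dimmer *Rapgef4* probe, -0.19 with siRNA1 and -0.0925 between the siRNAs, with normexp after replacement of extreme local backgrounds, a setting chosen after seeing the data. That setting called 26, 13, and 21 probes of the cascade with siRNA1, with siRNA2, and between them, against 24, 17, and 21 as reported. Over all tested probes it called 30.7%, 15.3%, and 22%, and the median log2 value was -0.11, -0.03, and -0.09.

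Planned normexp, which moved that median to 0.22, 0.17, and 0.11, called 2, 0, and 2 probes, and kept 4 of the 62 calls (*Gna11*). Of all tested probes it called 1.57%, 0.507%, and 0.334%. Up to 11 spots on each of 5 arrays had a local background over 2 times the array's median. Under it values changed sign for *Adcy7* (0.60), *Prkar1b* (0.29), *Gnas* (-0.0471), and *Nr4a2* (0.73) with siRNA1, for *Prkar1b* (0.27), the dimmest *Prkar2a* probe (0.25), the dimmest *Crem* probe (0.0240), *Prkaca* (-0.0005509), and *Nr4a2* (0.44) with siRNA2, and for *Prkar1b* (0.0226) and the *Grk5* probes (0.00519 and 0.0122) between the siRNAs.

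With siRNA2, scaling by the median and testing without a filter each called 11 probes (against 13.4% and 7.8% of all probes in those fits). Of the 62 calls in the 3 comparisons, 48 held with scaling by the median, 45 without a filter, and 53 in fits of the 2 groups compared. Requiring 2-fold as well called 3, 1, and 6 probes in the 3 comparisons, and the methods' t-test with 2-fold called 3, 1, and 6 too, both unadjusted and after Benjamini-Hochberg. Without 1 array, 18 to 25, 8 to 17, and 17 to 21 probes were called. The siRNA2 count was 8 without siRNA2 array 2 and 11 without siRNA2 array 3.

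Values near 0 crossed it for *Prkaca* with siRNA1 (0.0934 by quantile normalization, 0.0176 by median scaling, -0.0784 to 0.0224 without 1 array), for *Prkar1a* with siRNA2 (-0.299 to 0.0599 without 1 array), and in the mean over probes for *Gnas* with siRNA1 (-0.18) and *Creb1* (0.0768 with siRNA1 and 0.0976 with siRNA2).

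With slide as a block 29, 25, and 29 probes were called, and with the replicate block 27, 21, and 27, in both with all 62 calls held. Over all tested probes the slide block called 35.8%, 25.5%, and 32.1%, and the replicate block 34.6%, 24.1%, and 30.9%. Both blocks thus raised the number of calls over the whole array. Arrays of the same replicate number mostly deviated together, but not all of them did (median r = 0.36, lowest -0.26, 7 of 10 pairs over 0.1). Many of these arrays also shared a slide, so a pairing by number cannot be told apart from the slides.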
